A study of Pomatostomus ruficeps with 28 samples.

Results

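Methylated dense CpG clusters were stretches of the chestnut-crowned babbler genome in which measured sites lay close together and were methylated in most, but not nearly all, of the reads of nestling blood. A site was a member where at least 10 other sites of the deposited table lay within 250 bp on either side and where its mean methylation over nestlings was 70% or more and below 95%, and member sites at most 250 bp apart on a scaffold were joined into a cluster. Of the 1564780 sites in the table, 685116 (43.8%) met this rule, and they formed 35391 clusters on 7778 of the 22694 scaffolds. The measured levels chose the members, so the levels below describe what was chosen. Density was counted over the sites left in the table after filtering and not over all CpGs of the genome.

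Blood was taken from 28 chestnut-crowned babbler (Pomatostomus ruficeps) nestlings, of which 19 were raised by groups, that is by parents with helpers, and 9 were raised by pairs, that is by the parents alone. Nestlings were 14 to 20 days old (median 16) and had been hatched in an incubator and returned to a natal or to an unrelated nest. Natal group codes were taken from the table, and 7 natal groups had 2 or more of the nestlings. Brood of rearing and cross-fostering status were not used here, and carer number was a property of the nest, so nestlings of a nest are not separate replicates of it. The nest of rearing was not used in the tests, and p-values measure the spread between nestlings.

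In vertebrates, methyl groups are placed on cytosines followed by guanine, mostly on both strands of the same CpG, and a maintenance enzyme copies the pattern onto the new strand after replication. Most CpGs in vertebrate genomes are methylated, and the best known exceptions are CpG islands at gene starts, where CpGs are dense and usually unmethylated. Dense CpGs with high methylation are known from gene bodies, repeats and inactive islands. Avian red blood cells keep their nucleus, so avian blood DNA comes mostly from them. An intermediate level in whole blood can come from a mixture of cell types or of molecules within a type, and these cannot be told apart here. No genome or annotation was used, so clusters are given by scaffold and position and no gene is named.

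Enzymatic methyl-seq, in which unmethylated cytosines are converted by enzymes and read as thymine, gave 14979112 values at member sites. Each nestling had a value at 294301 to 668695 member sites, with a mean of 7.26 to 14.4 reads per value. A value of methylation on so few reads has steps of several percentage points, and 31.9% of member values were exactly 100%, against 28.9% at all other sites. Nestling 79687, raised by a group, stood apart: its reads were filled in by the authors, none of its values had fewer than 10 reads, and it had the fewest member sites with a value. In the other 27 nestlings the reads behind a value were recovered from the deposited coverage, and values with under 5 methylated and under 10 unmethylated reads were absent. Nestling 79687 had 7880 such values over the whole table. Every value on fewer than 10 reads thus had at least 5 methylated reads, and low percentages were absent there. Where this nestling set a value, the value without it is given beside it.

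Clusters were short and numerous, with a thin tail of long ones. The median cluster held 15 member sites (interquartile range 11 to 23, highest 339) over a length of 265 bp (interquartile range 190 to 428 bp, longest 6755 bp). Together they spanned 12484391 bp. Clusters of at least 5 sites numbered 31986 and held 98.8% of member sites, 1771 clusters of at least 50 sites held 19.5% of them, and 15 clusters had 200 or more. There were 6413 clusters over 500 bp, 1424 over 1000 bp and 165 over 2000 bp. At the other end, 978 clusters consisted of 1 member site.

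The level was narrow across clusters. The median cluster mean was 86.7%, and 90% of clusters lay between 79.7% and 91.0% (5 and 95 percentiles). Low percentages were absent from values on fewer than 10 reads. The levels here, and the site means that chose members, are therefore raised by an amount that was not measured. Within a cluster the means of the sites had a median SD of 4.98 points. Among member sites, 35.1% had a mean of 90 to 95%, 31.7% of 85 to 90%, 18.6% of 80 to 85%, 9.83% of 75 to 80% and 4.80% of 70 to 75%. In the 11635 clusters with at least 20 sites, the mean level was 86.9%, 87.0%, 87.1%, 87.0% and 86.8% over 5 equal parts of the length from start to end. Only member sites, held by the rule to 70% or more and below 95%, enter these means. They therefore cannot show whether the level steps at the edge of a cluster. Most clusters were not broken by low sites: 19748 had no site of another class inside their span, while 9524 (26.9%) had at least 1 site with a mean under 70% inside it.

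**Figure D1:**
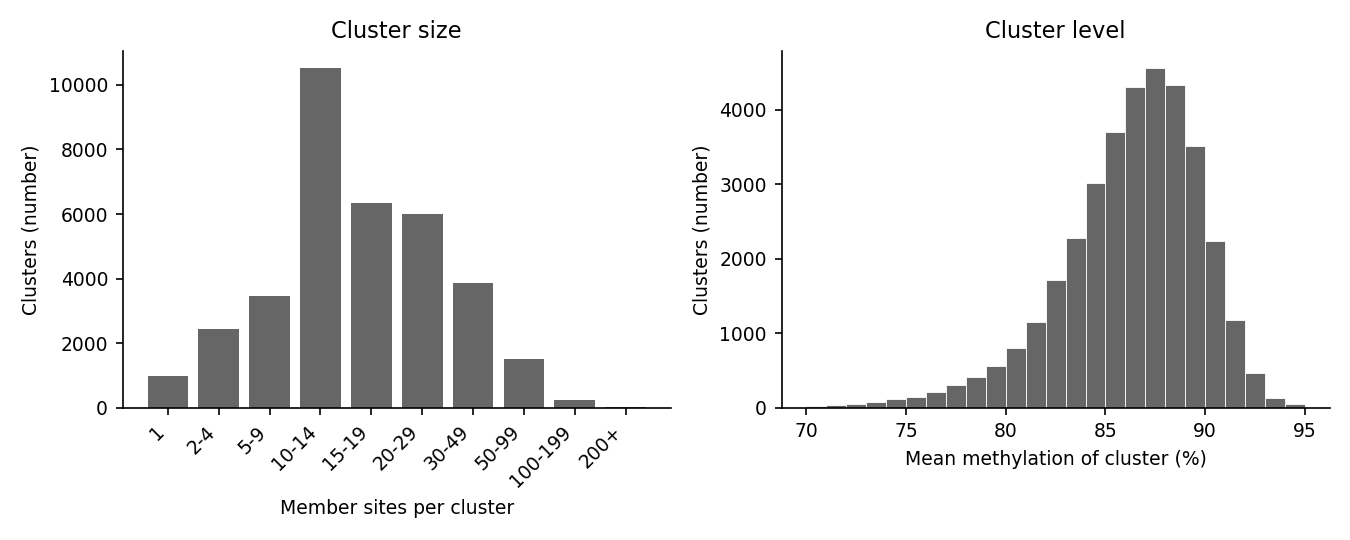
Size and level of the 35391 clusters. Left, number of clusters (y axis) by member sites per cluster (x axis, in classes of unequal width). Right, number of clusters (y axis) by mean methylation of the cluster in percent (x axis, 1-point bins). The median cluster had 15 sites and a mean of 86.7%, and few clusters had a mean near 70% or 95%.

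The limits of the rule cut through a continuous range. In the point of mean methylation just inside 70%, 4727 member sites had a median SD between nestlings of 13.6 points, and the 3958 dense sites just outside it had 13.7 points. Just inside 95%, 28007 member sites had a median SD of 8.21 points, and the 9984 dense sites just outside had 7.99 points. Sites with exactly 10 other sites in reach numbered 52826, with a median of site means of 87.4%, and the 56697 sites of 70 to 95% that missed the rule with 9 other sites had 87.3%. Of the clusters with at least 5 sites, the one nearest the lower limit lay on VYZT01069834.1, positions 117 to 359 (5 sites, mean 72.2%), and the one nearest the upper limit on VYZT01055078.1, positions 3789 to 3978 (10 sites, mean 94.1%).

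Part of the density came from both cytosines of a CpG standing in the table as separate sites. CpGs cannot start 1 bp apart on a strand, yet 310421 site pairs 1 bp apart were found in the table, although the study's methods state that strands were collapsed. Among member sites, 190525 such pairs held 370719 sites (54.1%), and 29.3% of all gaps between neighbouring members were 1 bp. Of member sites, 55.3% had any site 1 bp away, against 25.8% of all other sites. With sites 1 bp apart counted as 1 CpG, the median cluster had 11 CpGs, and 523024 sites in 24856 clusters would have met the rule (an alternative added after the data were seen).

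The mean methylation of the opposite cytosines was alike. The lower minus the upper position averaged 0.0197 points (SD 4.10 over pairs), and 79.8% of pairs had means within 5 points of each other and 97.7% within 10 points. Across nestlings, though, the deviations of the opposite cytosines from their site means were only weakly related, with Pearson r = 0.0903 over the values of 60000 site pairs drawn at random. Over all pairs, r within a nestling ranged between 0.0285 and 0.212 (median 0.0502), where the highest was nestling 79687 and the next was 0.167. This is a description over sites that share nestlings and clusters. Read numbers of the opposite cytosines in a nestling were correlated with r = 0.451 and were equal in 10.9% of cases.

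Over all values, neighbouring sites 2 to 40 bp apart varied together more closely than the opposite cytosines did, and sites farther apart did so less. For member sites r of the deviations was 0.338 at 2 bp, 0.256 at 3 bp, 0.214 at 6 to 10 bp, 0.114 at 21 to 40 bp, 0.0703 at 41 to 80 bp and 0.0463 at 81 to 120 bp. Sites a few bp apart on a strand are covered by the same reads. At sites of 70 to 95% outside dense stretches r was 0.0649 at 1 bp and 0.471 at 2 bp. The order of the means was different: site means were most alike at 1 bp, with r = 0.679 in members. A second r was taken after also subtracting each nestling's mean deviation over all sites. Over all values it was 0.0741 at 1 bp, 0.328 at 2 bp, 0.201 at 6 to 10 bp and 0.0995 at 21 to 40 bp in members. With at least 14 reads at both sites, this second r in members was 0.252 at 1 bp, 0.359 at 2 bp, 0.241 at 6 to 10 bp and 0.122 at 21 to 40 bp. At that depth r of the opposite cytosines was thus above that of sites 6 to 40 bp apart. Co-variation of the measured values therefore fell off within a distance shorter than the median cluster. Sites covered by the same reads share counting error, so these r cannot show how far differences between nestlings extend.

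**Figure D2:**
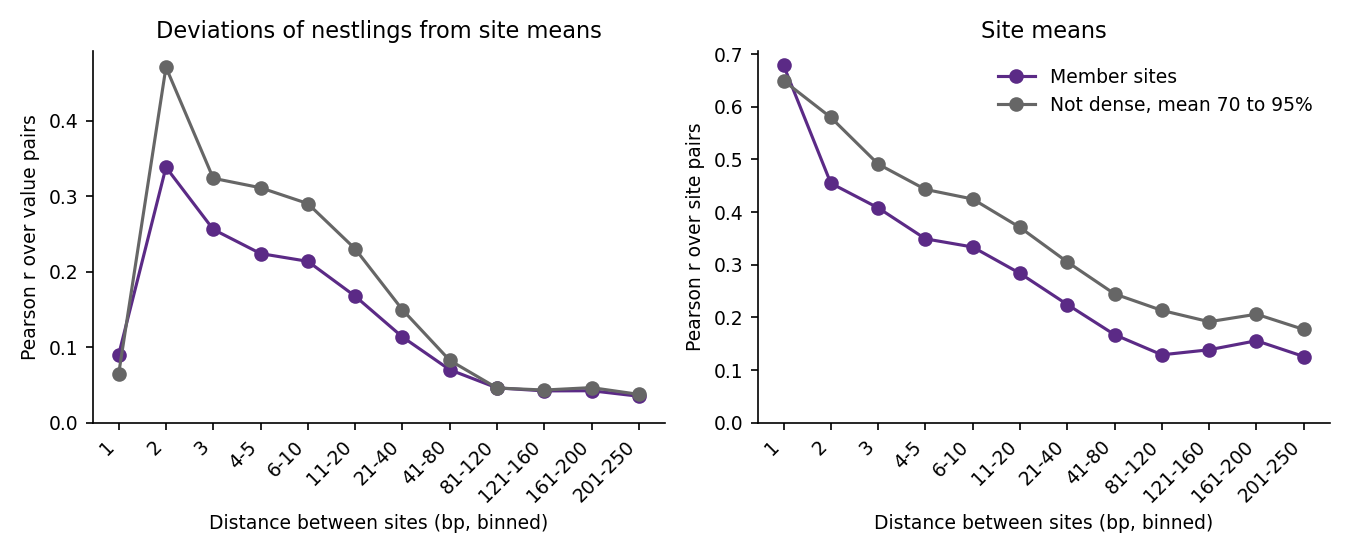
Likeness of neighbouring sites by distance. Left, Pearson r of nestling deviations from site means over value pairs (y axis). Right, Pearson r of site means over site pairs (y axis). The x axis gives the distance between sites in bp in bins, purple points member sites and grey points sites of 70 to 95% outside dense stretches. For deviations in members r was 0.0903 at 1 bp and 0.338 at 2 bp, while site means had their highest r, 0.679, at 1 bp.

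Over all values, the variance between nestlings at member sites was close to that expected from counting reads. On more reads it was above it. That expectation leaves out that every value on fewer than 10 reads had at least 5 methylated reads. The comparison over all values therefore cannot show how much nestlings differed. On at least 14 reads this limit did not apply. At every depth, though, sites of low variation had been removed by the authors, and the smallest SD left at member sites was 7.41 points. That removal raises the observed variance, so the ratios cannot show how much nestlings differed on more reads either. The median SD between nestlings was 10.6 points at member sites, and at sites of 70 to 95% outside dense stretches it was 11.1 points. The mean observed variance over nestlings was 1.03 times the mean variance expected from counting reads over all values (685116 sites). It was 1.25 times for values on at least 10 reads (362878 sites) and 1.36 times on at least 14 reads (15264 sites). The same ratios outside dense stretches were 0.986, 1.18 and 1.28 (783752, 289487 and 5930 sites). These are different sets of sites, and the median ratio over member sites was lower, at 0.951, 1.05 and 1.15. An SD of 25 points or more was found at 2819 member sites (0.411%), against 0.267% of sites of 70 to 95% outside dense stretches and 0.502% of all sites.

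On average, deviations were slightly smaller in members than at sites of like mean outside dense stretches. Averaged per nestling, the absolute deviation was 8.84 ± 0.332 points at member sites and 8.95 ± 0.234 points at the others (SD, n = 28), and it was higher at member sites in 3 of 28 nestlings. Member sites also had more reads per value than those sites, 9.80 ± 2.05 against 9.23 ± 1.41 (SD, n = 28), with more in 26 of 28 nestlings. For values on at least 10 reads the difference in deviation was -0.0110 points, and members were higher in 14 of 28 nestlings. On exactly 8, 10, 12 and 16 reads the difference was -0.0217, -0.0263, -0.0137 and -0.0625 points, and members were higher in 9 of 27, 12 of 28, 12 of 28 and 12 of 28 nestlings. At like read numbers the difference was thus smaller than over all values, with no order by reads.

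A small number of clusters varied widely between nestlings. Of the 11635 clusters with at least 20 sites, 647 had a median site SD of 12 points or more and 13 had one of 15 points or more. The level of a nestling in a cluster is given below as the cluster mean plus the mean deviation of the nestling over the sites it had. These clusters were chosen for their spread, so their values are a description.

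Among clusters with at least 20 sites the largest median site SD, 20.4 points, belonged to a cluster of 27 sites on VYZT01043236.1, positions 130616 to 130893 (mean 84.4%). Levels there ranged between 21% and 97.5% in nestlings raised by groups (median 92.3%) and between 48.1% and 97.8% in nestlings raised by pairs (median 89.5%). The lowest were nestling 79687, then 79328 at 38.5% and 62525, raised by a pair, at 48.1%. The SD of the levels over nestlings was 20.2 points, and without nestling 79687 it was 16.7 points. Most nestlings were thus highly methylated and 6 of 19 raised by groups and 2 of 9 raised by pairs were under 80%.

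The next cluster, on VYZT01027988.1, positions 24013 to 24154 (20 sites, SD 20.3 points), was split differently. Nestlings raised by groups had 25.3% to 98.9% (median 75.2%), and those raised by pairs had 53.2% to 94.9% (median 72.2%). Under 80% were 10 of 17 nestlings raised by groups and 7 of 9 raised by pairs, and no nestling lay between 79.6% and 91.4%. Nestling 79687 was again lowest, and the next lowest value was 53.2%. The SD of the levels was 17.2 points, and 14.1 points without that nestling.

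In the third, on VYZT01018106.1, positions 222 to 607 (22 sites, SD 19.1 points), nestling 79687 was not among the 3 lowest. Levels ranged between 43.6% and 94.3% in nestlings raised by groups (median 82.7%) and between 43.5% and 94.7% in those raised by pairs (median 67.0%). The carer classes overlapped in all 3 clusters. Natal groups were not uniform either. On VYZT01043236.1 the 4 nestlings of natal group OFS ranged over 73.7 points, and without nestling 79687 they lay between 71.1% and 94.7%. The 2 of BFD lay 42 points apart, while the 2 of CEG, 1 from each carer class, lay 0.806 points apart.

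In the clusters with the most sites the levels, each a mean over many sites, lay close together. The largest, on VYZT01049427.1, positions 282064 to 288818, had 339 sites over 6755 bp and a mean of 88.3%. Nestlings raised by groups had 85.5% to 91.9% there (median 88.9%), and those raised by pairs had 86.2% to 90.3% (median 87.5%). The other 4 largest lay on VYZT01011807.1 (positions 14054 to 19304, 306 sites), VYZT01012434.1 (200434 to 206823, 294 sites), VYZT01064709.1 (162242 to 166350, 291 sites) and VYZT01030022.1 (22478 to 25970, 260 sites). Their means were 87.6% to 89.1%, and the SD between nestlings of the level of these 5 clusters was 1.65 to 2 points. Site by site they were not unusual: their median site SD was 9.76 to 10.5 points, and the median over all clusters was 10.6 points.

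Among clusters with at least 20 sites, the lowest median site SDs were 8.21, 8.31 and 8.36 points, close to the smallest SD left in the table, 7.41 points. They lay on VYZT01025846.1 (positions 29810 to 30710, mean 92.5%), VYZT01064765.1 (157535 to 157867, 89.3%) and VYZT01050132.1 (2657 to 3702, 92.8%). In the cluster on VYZT01050132.1, nestlings raised by groups had 91.0% to 96.3% (median 93.7%) and nestlings raised by pairs 86.8% to 93.0% (median 90.8%). The lowest of all nestlings there was 79676, raised by a pair.

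**Figure D3:**
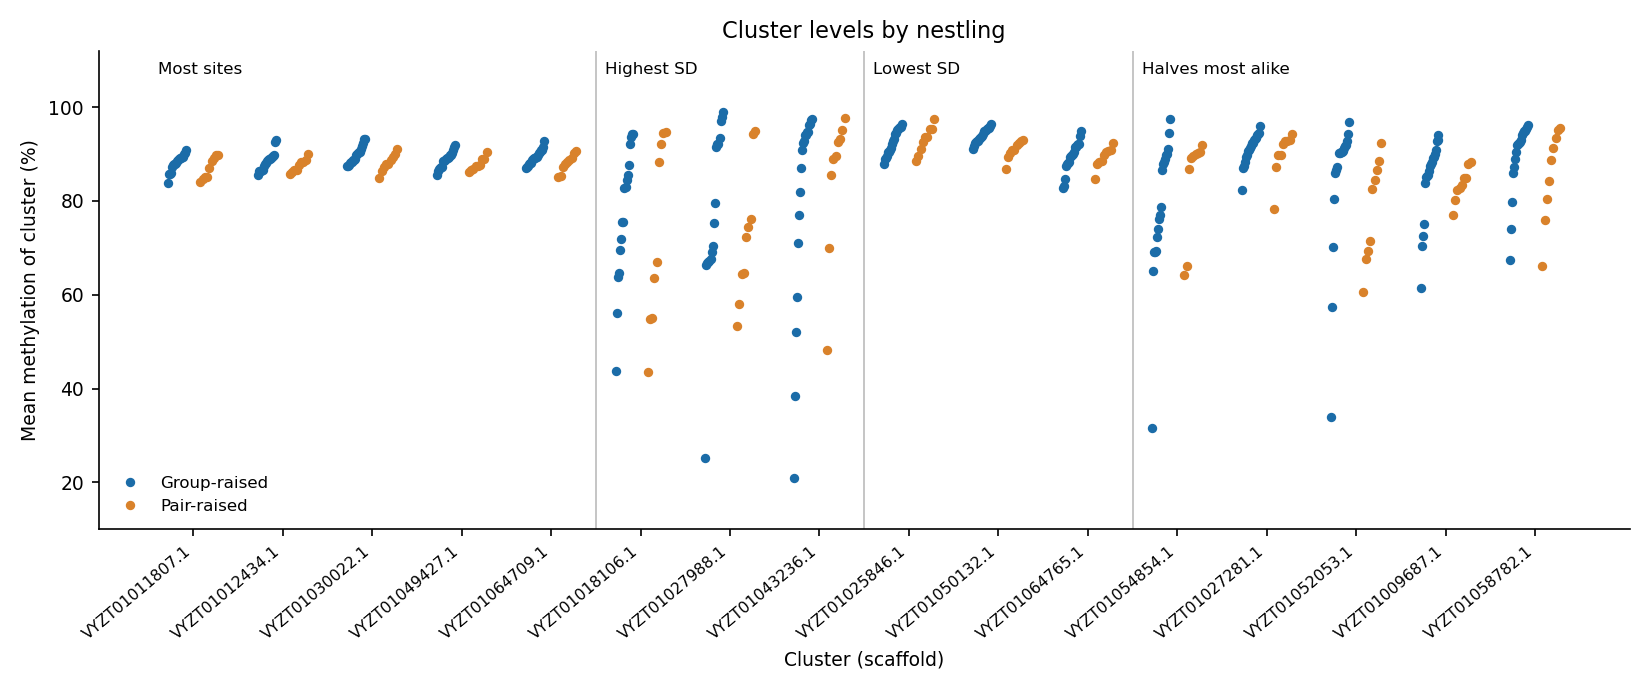
Level of each nestling in 16 clusters named by scaffold. The y axis gives mean methylation of the cluster in percent (cluster mean plus mean deviation of the nestling), and each point is a nestling, blue raised by groups and orange raised by pairs, sorted by level. In the 5 clusters with the most sites, where a level is a mean over many sites, all nestlings lay close together. On VYZT01043236.1 levels reached down to 21% in a nestling raised by a group and 48.1% in one raised by a pair.

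The opposite cytosines allowed a check on whether a deviation of a cluster was seen on both strands. In 5800 clusters with at least 5 cytosine pairs, each nestling's mean deviation over lower positions could be set against that over upper positions in at least 20 nestlings. Each nestling's mean deviation over all sites of the table was first subtracted, unlike in the cluster levels above. The median r over these clusters was 0.0930 (5 to 95 percentile -0.287 to 0.467), and r was above 0 in 65.8% of them. It reached 0.5 or more in 218 clusters and -0.5 or less in 20. Pooled over nestlings and clusters, r was 0.101 in clusters of 5 to 9 cytosine pairs and 0.180 in those of at least 40.

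In a few clusters the levels of both strands were closely related over nestlings. The 5 with the highest r, picked by that value, were on VYZT01054854.1 (positions 46455 to 47309, 48 sites, r = 0.900), VYZT01027281.1 (30587 to 31483, 30 sites, r = 0.812), VYZT01052053.1 (855 to 1105, 38 sites, r = 0.799), VYZT01009687.1 (21134 to 21434, 41 sites, r = 0.796) and VYZT01058782.1 (21896 to 22555, 99 sites, r = 0.790). They had been chosen for that r, which is given with no test. Spearman rho in them was 0.384 to 0.714.

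On VYZT01054854.1 the nestlings fell into separate ranges. Nestling 79687 had 31.5%, 11 others had 64.2% to 78.8%, and 16 had 86.6% to 97.4%. Under 80% were 10 of 19 nestlings raised by groups and 2 of 9 raised by pairs, with medians of 78.8% in groups and 89.6% in pairs. Without nestling 79687, r between the strands was 0.798 and rho 0.449. Both nestlings of natal group BFD and both of NFI were in the lower range, both of OFQ and both of SFO were in the upper range, and CEG, EFH and OFS had nestlings in both.

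On VYZT01052053.1 the lowest nestling was 79591, raised by a group, with 34.0%, while the other nestling of its natal group BFD had 90.5%. Next came 61525 at 57.4% and 62525, raised by a pair, at 60.7%. The medians were 90.3% in nestlings raised by groups and 82.5% in those raised by pairs. On VYZT01058782.1, the cluster with the most sites of the 5, nestling 62525 had the lowest level, 66.2%, and 79591 had 67.3%, and the medians were 92.3% in groups and 88.7% in pairs. Over 8 clusters, 3 picked for spread and 5 for likeness of the strands, nestling 62525 was among the 3 lowest in 5. Nestlings 79591 and 79687 were so in 4 each. Mean reads per value at member sites were 12.2 in 62525, 13.2 in 79591 and 12.5 in 79687. These were high in the range over nestlings, 7.26 to 14.4, and the next lower value was 10.6, in 79532. Also above 12.2 were 62618, with 14.4, 79513, with 14.3, and 79578. Of these, 79513 was among the 3 lowest in 1 of the 8 clusters, and 62618 and 79578 were so in none. Whether reads set these ranks was not tested. The cluster on VYZT01027281.1 had a median site SD of 9.98 points, under the median of 10.6 points over all clusters.

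**Figure D4:**
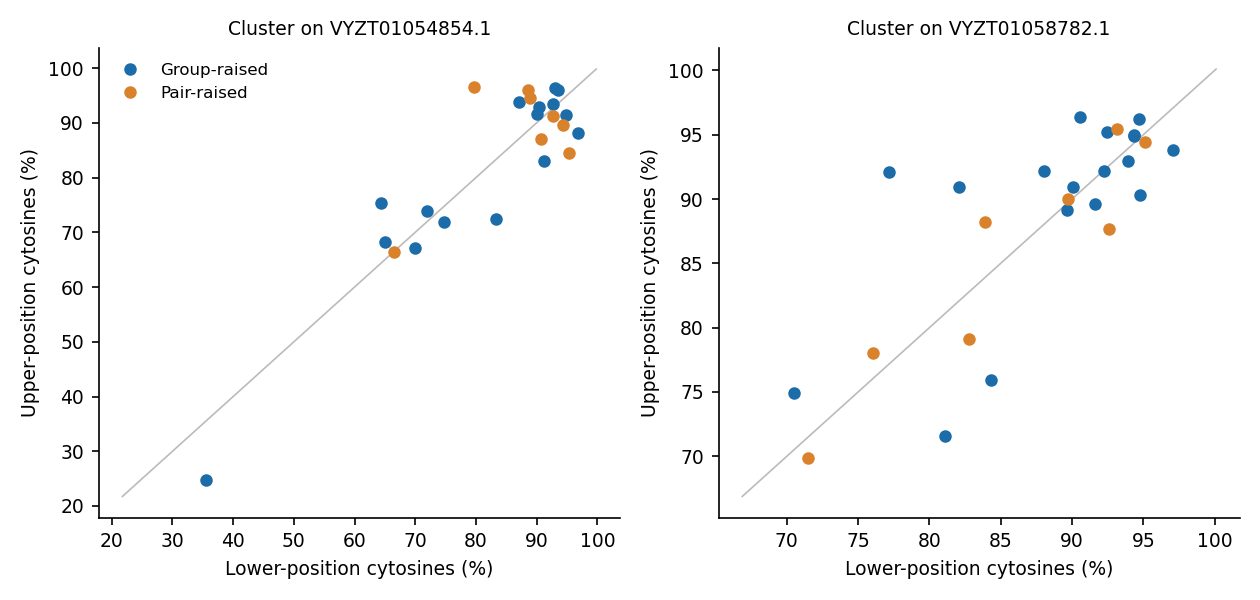
Both strands of 2 clusters. Each point is a nestling (blue raised by groups, orange raised by pairs), with the line of equality in grey. The x axis gives the cluster mean plus its mean deviation over the lower positions of cytosine pairs 1 bp apart, in percent. The y axis gives that over the upper positions. In both, the nestling's mean deviation over all sites was subtracted. On VYZT01054854.1 (r = 0.900) and on VYZT01058782.1 (r = 0.790) nestlings low on one strand were low on the other.

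Nestlings raised by groups and by pairs overlapped in their mean level over all member sites. The mean deviation from the site means was 0.513 ± 1.62 points in nestlings raised by groups (SD, n = 19; range -2.01 to 2.89) and -0.533 ± 1.43 points in nestlings raised by pairs (SD, n = 9; range -2.88 to 1.30). The difference, 1.05 points, was smaller than the SD within either class. At the 4799 member sites with a value in all nestlings, the mean level was 84.4 ± 0.664% in nestlings raised by groups and 83.7 ± 1.45% in those raised by pairs (SD). Without nestling 79687 the difference in mean deviation was 1.18 points, and without nestling 79676, the lowest over sites shared by all nestlings, it was 0.869 points.

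The mean deviation of a nestling moved closely with its reads, and part of this was built into the table. Every value on fewer than 10 reads had at least 5 methylated reads, so low percentages were absent there. On at least 14 reads no value could be absent for this reason. Over the 28 nestlings Pearson r between mean deviation and mean reads per value was -0.817 and Spearman rho was -0.870, and within classes r was -0.929 in groups and -0.495 in pairs. Mean reads per value were 9.57 ± 2.13 in nestlings raised by groups and 10.3 ± 1.90 in those raised by pairs (SD). With values on at least 10 reads r was -0.197 and the difference between carer classes was 0.373 points, and with values on at least 14 reads these were -0.0254 and 0.255 points. With values weighted by reads the difference between carer classes was 0.997 points, and with residuals on mean reads per value it was 0.590 points. Whether reads account for the difference was not tested.

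**Figure D5:**
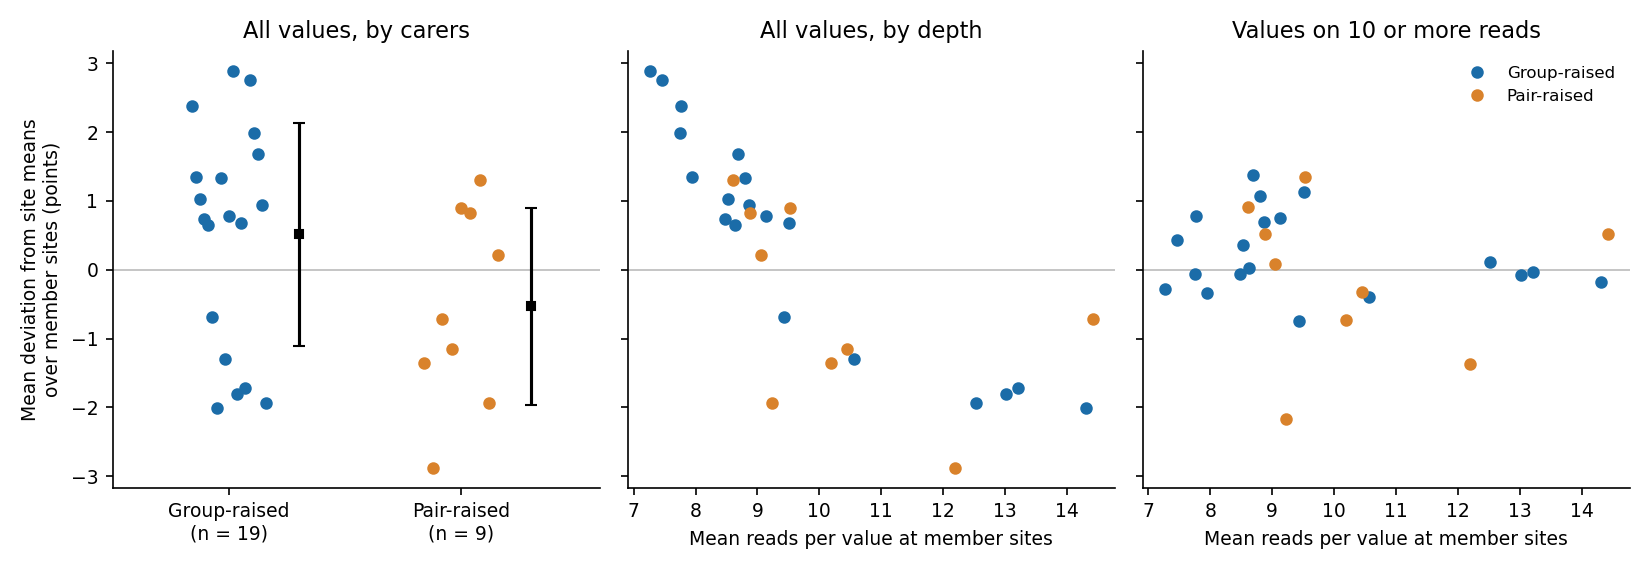
Mean deviation of each nestling from the site means over member sites, in percentage points (y axis in all panels). Left, by carers, with mean and SD in black (groups 0.513 ± 1.62, n = 19; pairs -0.533 ± 1.43, n = 9). Centre, against mean reads per value (r = -0.817), where every value on fewer than 10 reads had at least 5 methylated reads. Right, the same nestlings with values on at least 10 reads only (r = -0.197), blue raised by groups and orange raised by pairs.

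Age was nearly unrelated to the mean level. Pearson r between age in days and mean deviation was 0.106 and Spearman rho 0.121 over the 28 nestlings, 0.225 within groups and -0.306 within pairs, and without the 2 nestlings farthest from the median age r was -0.0024. Natal group accounted for an intraclass correlation of 0.236 over the 16 nestlings of 7 natal groups. The 2 nestlings of SFO, both raised by pairs, differed by 0.0833 points and the 2 of CEG, raised by a group and by a pair, by 0.645 points, while the 4 of OFS, all raised by groups, ranged over 3.61 points. Nestling 79687 was the lowest of OFS, and the others of OFS had mean deviations of 0.646 to 1.68 points. Without nestling 79687 the intraclass correlation was 0.475. Site by site, over all member sites, r between the deviations of nestlings averaged -0.0364 in 12 such pairs of nestlings (range -0.0584 to 0.00542) and -0.0478 in 366 pairs of different natal groups (range -0.0708 to 0.0331). Without nestling 79687 the highest r within a natal group was -0.0192. Deviations are taken from a mean over the same nestlings, which makes such r negative on average. At the member sites with an SD of 25 points or more, picked by that spread, r averaged 0.0766 in nestlings of the same natal group (range -0.146 to 0.425) and -0.0484 in those of different natal groups (range -0.205 to 0.472), and 11 of the 12 pairs lay above the median of the 366. The medians at these picked sites were -0.0117 in the same natal group and -0.0571 in different ones, so a few pairs raised the mean of the former. The 12 pairs share nestlings, and only 6 of them lay outside OFS. At these sites no values without OFS or without nestling 79687 were computed. No test is given for these values.

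No cluster was called different between carer classes or with age. In limma, 95731 runs of at least 5 sites were tested, of which 31981 were clusters of member sites and the others were runs of the remaining sites joined in the same way. 1 run of other sites passed an adjusted p of 0.05 by carers (0.00104% of all runs) and none by age (0%), and 0 clusters of members passed by either. At an unadjusted p of at most 0.05, limma had 1554 clusters (4.86%) by carers, against 5.44% of all runs, and 929 clusters (2.90%) by age, against 4.30%. The median difference, groups minus pairs, was 0.953 points over the clusters and 0.831 points over all runs, and 71.2% of clusters and 64.8% of all runs were higher in nestlings raised by groups. Over values on at least 10 reads the median difference of clusters was 0.433 points and 58.5% were higher in groups.

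The 3 clusters with the smallest p by carers did not pass. On VYZT01035272.1 (positions 431696 to 432123, 26 sites, mean 87.7%), nestlings raised by groups had 85% to 96.9% (median 91.4%) and those raised by pairs 78.1% to 91.4% (median 81.7%). The difference was 7.97 points (SE 1.70, limma adjusted p = 0.606), and the classes overlapped. On VYZT01040153.1 (52329 to 52533, 12 sites) the medians were 90.9% in groups and 83.5% in pairs, with a difference of 9.91 points (SE 2.18, limma adjusted p = 0.606). On VYZT01056190.1 (14047 to 14314, 13 sites) they were 92.2% in groups and 83.6% in pairs, with a difference of 8.41 points (SE 1.92, limma adjusted p = 0.606).

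By age, the clusters with the smallest p were on VYZT01047507.1 (117033 to 117210, 7 sites, -2.88 points per day, SE 0.629), VYZT01050300.1 (21493 to 21917, 10 sites, 2.55 points per day, SE 0.565) and VYZT01056369.1 (402488 to 402812, 13 sites, -2.07 points per day, SE 0.479), each with a limma adjusted p of 1.

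Single sites were tested with a beta regression on carers and age, fitted at all 1564780 sites, with p-values adjusted by Benjamini-Hochberg over all of them. Calls needed an adjusted p no larger than 0.01 and predicted means at least 25 points apart. By carers, 5 member sites were called, all higher in nestlings raised by groups, against 25 sites (0.0016%) in the whole table. With natal group as a random intercept, 141 member sites were called, 20 of them lower in groups, against 436 sites (0.0281%) in the whole table. Of the 141, 22 had raw means 25 points or more apart and 9 had a p listed as 0. Among the 50 with the smallest p, 4 had a raw difference opposite in sign to the predicted one, so these directions are not read further. That fit failed at 12008 sites. With values only cut off just inside 0 and 100% before the fit, 23 member sites were called, 12 higher in groups and 11 lower, against 84 sites (0.00537%) in the whole table, and 3 of the 5 were among them. An unadjusted p under 0.05 was found at 8.43% of member sites and 8.48% of all sites. Limma on logit values called 0 member sites by carers, with an unadjusted p under 0.05 at 5.28% of them, and 0 by age, with 5.57%. Over all sites it also called 0 by either term, and these shares were 4.92% and 5.13%. The carer calls thus rest on the beta regression.

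The 5 sites lay in 5 clusters. At each, the fewest reads of a value were 5 in nestlings raised by groups and 7 to 10 in those raised by pairs. Every value on fewer than 10 reads had at least 5 methylated reads, so a value on 5 reads could only be 100%. The lowest possible value thus depended on the reads behind it. Both carer classes had values on 10 or more reads at each site. At VYZT01024965.1, position 523991 (cluster of 33 sites), nestlings raised by groups had 66.7% to 100% (median 87.5%) and those raised by pairs 50% to 66.7% (median 62.5%), on 5 to 11 reads. The predicted difference was 30.2 points, with an adjusted p of 0.000189 in the beta regression. The classes met at 66.7% and did not overlap beyond it.

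At VYZT01010488.1, position 1079 (16 sites), nestlings raised by groups had 55.6% to 100% (median 87.5%) and those raised by pairs 54.5% to 69.2% (median 61.3%). The difference was 26 points (beta regression adjusted p = 0.00109). At VYZT01030594.1, position 67439 (24 sites), the values were 83.3% to 100% in groups, 9 of the 14 at 100%, and 46.2% to 88.9% in pairs (median 63.5%). The difference there was 25.9 points (beta regression adjusted p = 0.00146). In both, a single class reached 100%, that of nestlings raised by groups. Only that class had values on 5 reads there, which could only be 100%.

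At VYZT01036225.1, position 4134 (15 sites), nestlings raised by groups had 52.6% to 100%, 10 of 16 at 100%, and those raised by pairs 29.4% to 87.5% (median 62.5%). The difference was 28.4 points (beta regression adjusted p = 0.00597). Its opposite cytosine was in the table, where the difference was 2.49 points with an unadjusted p of 0.465. At VYZT01013225.1, position 49160, in a cluster of 104 sites, the values were 50% to 100% in groups (median 88.9%) and 41.7% to 80% in pairs (median 59.1%). The difference was 27.2 points (beta regression adjusted p = 0.00978). With 6 to 8 values from nestlings raised by pairs at each of the 5 sites, the p-values of the beta regression are approximations. An exact permutation test there could not go below a p of 4.1e-06 to 3.7e-05. Its two-sided p for the raw difference, not adjusted, was 7.4e-05 at VYZT01024965.1 and 9.2e-05 at VYZT01010488.1. At VYZT01030594.1, VYZT01036225.1 and VYZT01013225.1 the exact permutation p was 0.000335, 0.000799 and 0.000899. The beta regression, which picked these sites, had an unadjusted p of 2.1e-08 to 7.6e-06 there. Without nestling 79676, the sites on VYZT01013225.1, VYZT01030594.1 and VYZT01036225.1 were no longer called.

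By age, 148 member sites were called, 35 higher with age (0.00639% of all sites were called in that direction) and 113 lower (0.0178%), against 378 sites (0.0242%) in the whole table. The random intercept gave 955 called member sites, 272 higher with age and 683 lower, against 2622 (0.169%) in the whole table. The 148 sites lay in 146 clusters, and no cluster held more than 2. Predicted differences between the youngest and the oldest age ranged from -67.3 to 38.6 points. The split of directions depended on how values of 0 and 100% were moved inside the limits of the model: with values only cut off just inside 0 and 100%, 109 of 167 called member sites were higher with age and 58 were lower, against 439 sites (0.0281%) called in the whole table, and 69 of the 148 sites were shared. A site 1 bp away was in the table for 80 of the 148, and 3 of these neighbours had an unadjusted p under 0.05, while 7.95% of all member sites had one. With values on at least 10 reads, 14947 member sites could be fitted and 1 was called by age, against 5 of 39491 sites (0.0127%) in the whole table.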

How the data were processed

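Libraries were made by the authors with NEBNext Enzymatic Methyl-seq from nestling blood. Per the study's methods, reads were trimmed with HTStream and mapped with Bismark to the babbler genome, sites were filtered on coverage, presence in both carer classes and variation, and strands were collapsed. Tool versions are not given in the sources used here. The deposited table gives percent methylation per site and nestling. Its coverage, a signal column deposited by the authors, was not the number of reads behind the percentage in 27 nestlings, and their reads were recovered as whole numbers that reproduce both columns. For 1 nestling the authors deposited the counts of methylated and of unmethylated reads. The authors' variance per site, a signal, was only compared with the recomputed variance. Left aside were 5 further columns with values of each nestling.

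Members, named clusters and lists were chosen with earlier results of these data known, and therefore no p-value is given for means over member sites. Nestling levels were mean deviations from site means. Site tests were beta regressions (numpy 2.4.6, numba 0.67.0, scipy 1.17.1) on carers and age, and runs were tested with limma 3.58.1 (R 4.3.3) on at least 3 sites in a nestling, 12 nestlings raised by groups and 6 by pairs. Both were also run on simulated continuous values. These had no steps from read numbers, no removal of low values on few reads and no shared nests, so such features were not tested. The study's brood and cross-fostering terms were not fitted, and natal group as a random intercept or block was an alternative. Named were the 5 clusters with the most sites, of those with at least 20 sites the 3 with the highest and the 3 with the lowest median SD, member sites called by carers, the 3 clusters with the smallest p per term, and those nearest 70 and 95%. The 5 clusters most alike on both strands were added after seeing values.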

Additional observations from a re-analysis of the deposited data

Results flagged for a closer look

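Nestlings far from the others were looked for in the 9 nestlings raised by pairs and in the 4 of natal group OFS, over 57 sets of values. The limit used sets apart about 1 in 20 unselected sets by chance. Some sets were of clusters picked for their spread or for likeness of the strands, and that rate does not hold for them. In natal group OFS nestling 79687 had 12.5 mean reads per value at member sites, with the next at 8.87, and 19.1% of its member values were exactly 100%, with the next at 36.7%. None of its values had fewer than 10 reads. In the same natal group, nestling 79684 had a level of 61.5% in the cluster on VYZT01009687.1, with the next at 85%. Among nestlings raised by pairs, 62525 had 78.2% in the cluster on VYZT01027281.1, with the next at 87.3%. Both of these clusters had been picked for likeness of the strands. What set these values apart was not tested.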

How the results depend on the processing

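Joining member sites at 100 bp gave 57126 clusters and asking for at least 15 other sites gave 19962. The other member rules stayed within 1.5 times the 35391 clusters. The carer difference in mean deviation was 0.255 to 1.18 points under its alternatives. The age correlation reversed with at least 10 reads (-0.0357), at least 14 reads (-0.0567), residuals on reads (-0.0944), within pairs (-0.306) and without the 2 extreme ages (-0.0024). Member sites called by carers numbered 530 with no limit on the difference, 0.0774% of members against 0.0779% of all sites. They numbered 19 at an adjusted p of 0.05 (0.00415% of all sites called) and 141 with a natal group random intercept (0.0281%, 4 of the 5 shared). With values only cut off just inside 0 and 100% there were 23 (0.00537%), 12 higher in groups and 11 lower. There were 9 without nestling 79676 (0.00262%), 3 with carers alone (0.00109%) and 0 with limma (0%). With at least 10 reads, where fewer sites could be fitted, there were 0 (0.00253%). By age the numbers were 254 with no limit on the difference (0.0404% of all sites called) and 514 at an adjusted p of 0.05 (0.0853%). The random intercept gave 955 (0.169%, 143 of the 148 shared). There were 72 with age alone (0.0129%), 1 with at least 10 reads (0.0127%) and 0 with limma (0%). No alternative called a cluster of members. The difference in spread was -0.0110 points with at least 10 reads, and -0.0217, -0.0263, -0.0137 and -0.0625 on exactly 8, 10, 12 and 16 reads. With each nestling's mean deviation over all sites also subtracted, co-variation at 1 bp was 0.0741 over all values and 0.252 with at least 14 reads. Where not given, the cause was not tested. Levels on few reads limit single sites, and depth covers counting error only. No paired analysis was made, since the labels match no nestling raised by a group with one raised by a pair.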
